A study of Homo sapiens with 6 samples.

Results

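AP-1 is a family of dimeric transcription factors, and 10 of its genes were followed in WM164, an established human melanoma cell line: FOS, FOSB, FOSL1, FOSL2, JUN, JUNB, JUND, ATF3, BATF and BATF3. They were taken by gene name from the 58870 genes of the count table, and each name matched a single row. RNA sequencing gave 6 libraries of WM164 cells kept in RPMI medium with fetal bovine serum, 3 from cells overexpressing GFP (the control) and 3 from cells overexpressing T-MGM, a tethered dimer of MafG and MITF. In the study's methods the constructs were lentiviral, driven by the EF1α promoter and selected with blasticidin, and the dimer joins the melanocytic isoform of MITF to MAFG by a flexible linker. Nothing in the labels says that the libraries of a group came from separate cultures, so p-values measure only the spread between these libraries. Bulk RNA cannot tell a change in the share of cells that express a gene from a change in each cell.

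AP-1 proteins bind DNA through a basic region and pair through a leucine zipper. FOS-type proteins (FOS, FOSB, FOSL1 and FOSL2) need a partner such as a JUN-type protein (JUN, JUNB and JUND), whereas JUN-type proteins can also pair among themselves, and ATF3, BATF and BATF3 pair with JUN-type proteins. The dimers read the 12-O-tetradecanoylphorbol-13-acetate response element TGANTCA or, for JUN and ATF pairs, the cyclic AMP response element, and the longer element read by small MAF proteins contains the AP-1 site. Several members are immediate early genes that serum, growth factors, stress and MAP kinase signalling induce. In melanoma, FOSL1 and JUN are known for their high levels in dedifferentiated, invasive cell states.

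The GFP libraries held 35057239 to 38738065 counts in total, and those labelled T-MGM 44577774 to 59250663. The 3 libraries of each group correlated at r of 0.991 to 0.994 across genes, against 0.971 to 0.974 between groups, and no libraries were identical. The construct genes differed little between the groups. MAFG had 2458 ± 70.3 normalized counts (counts divided by a library's size factor) in the GFP group and 2358 ± 34.9 in the T-MGM group, and MITF had 19161 ± 46.9 and 20269 ± 165 (SD, 3 libraries each). By counts MITF passed upwards at a log2 fold change of 0.081 (DESeq2 adjusted p of 4.80e-07), and MAFG did not pass (-0.06; DESeq2 adjusted p of 0.236). The overexpressed genes thus gave no clear check of the labels, from which the directions are taken. The melanocytic markers MITF, SOX10, MLANA, PMEL, TYR and DCT were all expressed and all passed, in both directions. By counts, the pigment enzymes DCT and TYR fell by 2.49 and 0.35 on the log2 scale in the libraries labelled T-MGM. The melanosome gene MLANA fell by 0.68, while MITF, SOX10 and PMEL rose by 0.08, 0.11 and 0.05. These small rises depended on the scale. In TPM, a share of all transcripts scaled for gene length, mean MITF was 138 in GFP and 133 in T-MGM libraries. Mean SOX10 was 416 and 403 TPM, and mean PMEL 252 and 237 TPM. DCT, TYR and MLANA were lower in mean TPM too. Summed normalized counts of the melanocytic markers were 115373 to 116089 for the controls and 107778 to 110535 for T-MGM. The lymphoid markers PTPRC, CD3E and MS4A1 had at most 3 counts in every library. Summed normalized counts of 6 lymphoid and myeloid markers were 795 to 883 in GFP and 971 to 1192 in T-MGM libraries, nearly all from CD68, which rose by 0.45 on the log2 scale (DESeq2 adjusted p of 8.75e-08), while LYZ fell by 1.32 (DESeq2 adjusted p of 7.83e-05). Of 5 keratinocyte markers only KRT10 had enough counts for a test and did not pass. The 3 endothelial markers summed to 20.4 to 34.6 and 34.7 to 48.8 normalized counts, and neither of the 2 tested, PECAM1 and VWF, passed. The part of other cells in the results was not tested.

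Sequence before the start site is shown for 3 members whose promoters hold the same kind of element, JUN and JUND, which rose, and ATF3, which did not pass. Promoters are the 250 bases before the RefSeq start site (GRCh38.p14), matched by symbol for 8 of the 10 members; FOSL1 and BATF3 were not matched. Each is written from 5′ to 3′ on the gene's strand, and capitals mark every match to the 6 motifs searched on both strands.
JUN, chr1:58784048-58784297, minus strand: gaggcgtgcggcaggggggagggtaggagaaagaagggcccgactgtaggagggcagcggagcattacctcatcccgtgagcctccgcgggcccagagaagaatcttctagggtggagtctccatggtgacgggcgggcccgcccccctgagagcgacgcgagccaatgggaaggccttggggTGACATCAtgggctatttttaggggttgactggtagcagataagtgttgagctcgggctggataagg
JUND, chr19:18281623-18281872, minus strand: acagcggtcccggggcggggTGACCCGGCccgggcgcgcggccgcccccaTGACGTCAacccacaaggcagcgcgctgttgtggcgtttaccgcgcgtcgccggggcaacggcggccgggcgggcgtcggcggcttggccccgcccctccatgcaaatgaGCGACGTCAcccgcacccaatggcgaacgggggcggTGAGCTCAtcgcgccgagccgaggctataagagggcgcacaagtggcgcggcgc
ATF3, chr1:212565157-212565406, plus strand: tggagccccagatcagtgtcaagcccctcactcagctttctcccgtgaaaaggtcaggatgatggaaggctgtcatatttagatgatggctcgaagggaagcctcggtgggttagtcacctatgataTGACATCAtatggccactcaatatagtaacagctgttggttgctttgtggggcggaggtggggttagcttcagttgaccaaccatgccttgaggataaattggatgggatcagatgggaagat

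The capitals are matches to TGANNTCA, an 8-base site of the cyclic AMP response element type, and in JUND also to TGACNNNGC, the core read by CNC and small MAF pairs. JUN and ATF3 hold the same letters, TGACATCA, beginning at -67 from the start site in JUN and at -123 in ATF3. JUND holds TGACGTCA at -200 and TGAGCTCA at -54, and matches to TGACNNNGC at -230 and -90. A second annotated start of ATF3 had no match. TGANNTCA occurred in 10.1% and TGACNNNGC in 10.9% of the 35116 promoters of this length. The AP-1 site TGANTCA (6.57% of all promoters), the E-box CACGTG (6.34%) and the CArG box (1.16%) had no match in this window of the 8 members. The M-box core CATGTG (9.42% of all promoters) matched in FOSL2 at -51 and in BATF at -61. A match is a run of letters, not a shown binding site.

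**Figure D1:**
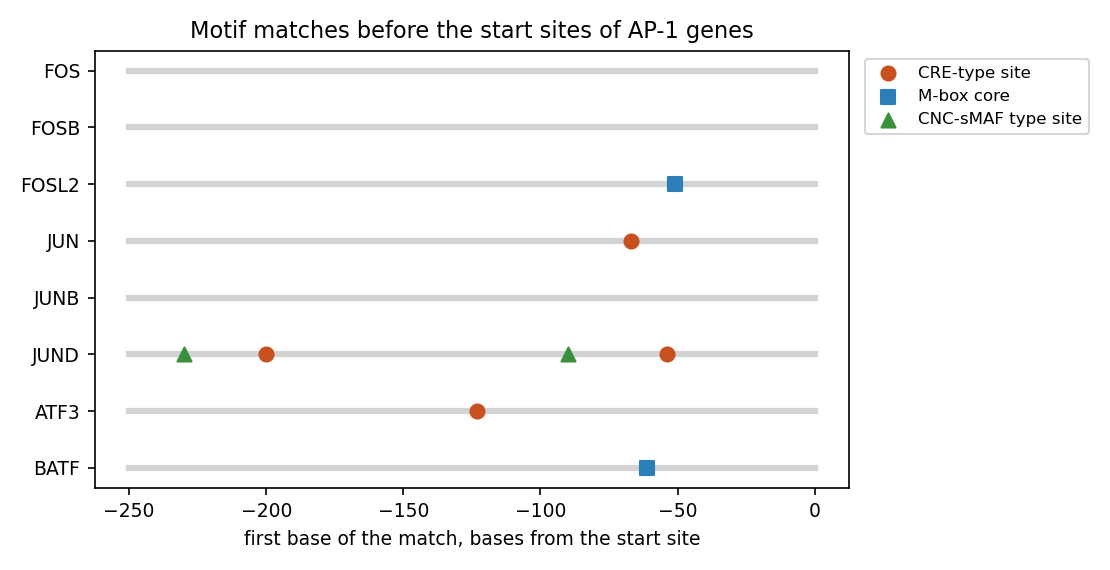
Positions of motif matches in the 250 bases before the RefSeq start site of 8 AP-1 genes; the horizontal axis gives the first base of each match relative to the start site and each symbol is 1 motif. Only JUN, JUND and ATF3 hold a match to TGANNTCA, and the windows of FOS, FOSB and JUNB hold none of the 6 motifs.

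By normalized counts more AP-1 transcripts were higher than lower in the libraries labelled T-MGM, and every change was under 2-fold. This balance depended on the scale: in limma on log2(TPM + 1), FOSL1 and JUN passed upwards and FOSB and JUNB downwards. FOSL1 and JUN rose most, 1.58-fold and 1.63-fold, followed by JUND, FOS and FOSL2, whereas FOSB fell and JUNB, ATF3 and BATF3 did not pass. Counts were tested across all genes with DESeq2, and a gene passed where its p, adjusted by Benjamini-Hochberg, was no higher than 0.05. Of the 10 members 9 could be tested, and 6 passed, 5 higher and 1 lower, beside 38.4% of all 19135 genes tested in either direction and 19.2% in each. The median log2 fold change was 0.36 over the 9 members and -0.0027 over all genes tested. None was called at the study's further threshold of a fold change over 2, which 4.63% of all genes met (3.26% higher and 1.36% lower). The libraries did not overlap for 7 of the 9 members, 6 higher and 1 lower, where 46.8% of all genes tested did not (23.4% higher and 23.4% lower). JUN, ATF3 and BATF3 lie on chromosome 1 and FOSB, JUNB and JUND on chromosome 19.

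**Figure D2:**
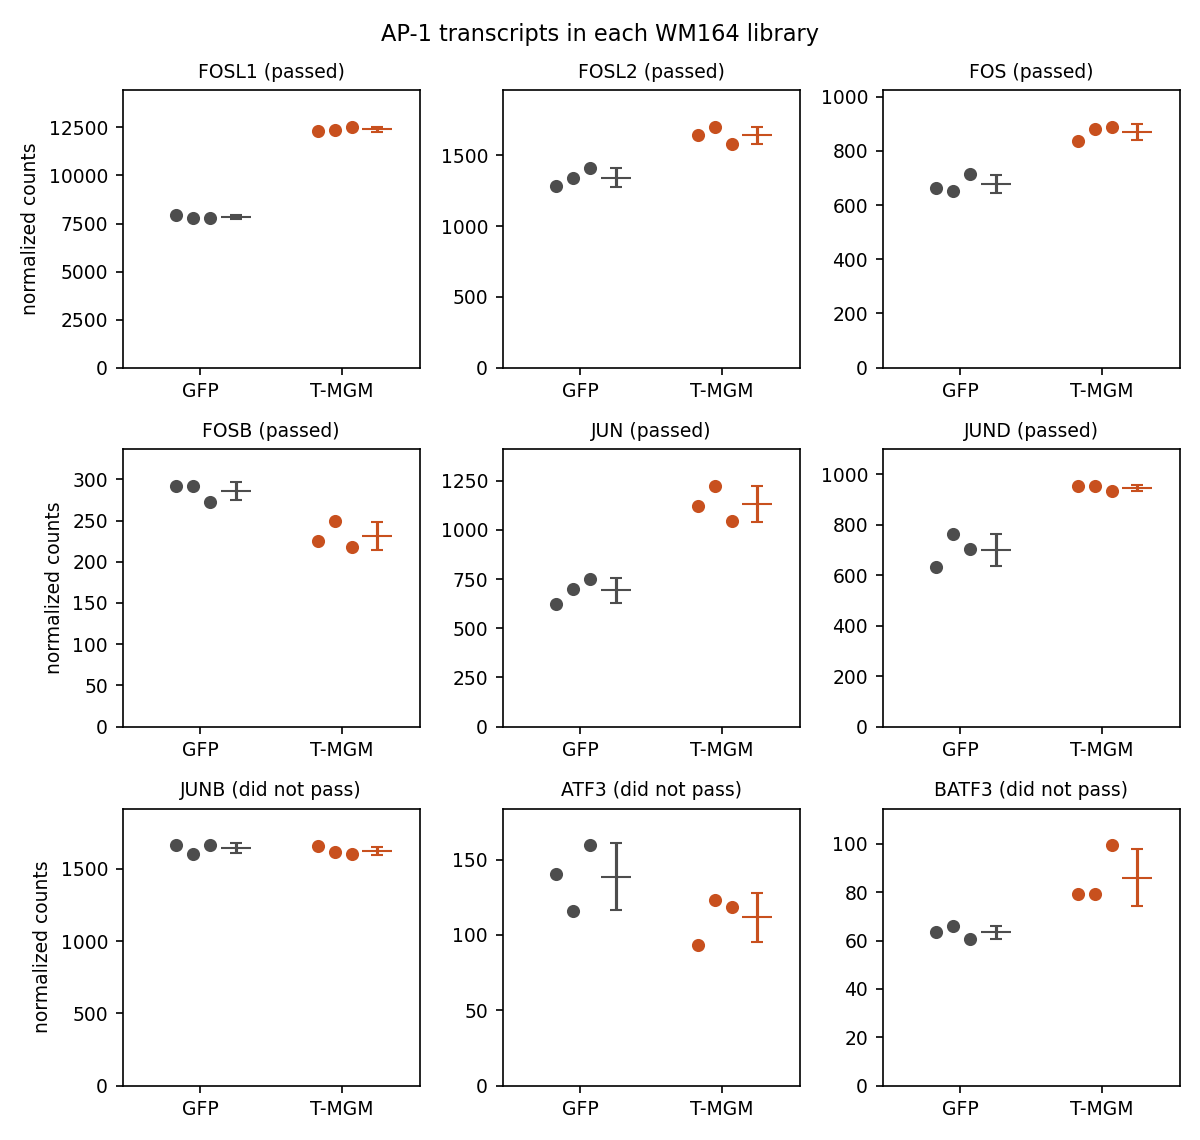
Normalized counts (vertical axes, starting at 0) of the 9 detected members in each library; points are libraries, and bars beside them are the mean and SD of 3 libraries. FOSL1, FOSL2, FOS, JUN, JUND and BATF3 have all 3 libraries labelled T-MGM above all 3 GFP libraries, FOSB has them below, and JUNB and ATF3 overlap.

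FOSL1 encodes FRA-1, a FOS-type subunit that lacks the strong transactivation domain of FOS and is stabilised by ERK signalling. FOSL1 (ENSG00000175592.8; chromosome 11, 65892049 to 65900573, minus strand, GRCh38) had 7960, 7784 and 7781 normalized counts in GFP libraries 1 to 3 and 12309, 12370 and 12539 in those labelled T-MGM. The groups stood far apart against a SD of 103 for the control group and 119 for the T-MGM group (n = 3 each). Its log2 fold change was 0.66 (adjusted p from DESeq2 of 1.17e-234, SE 0.02), with 95% limits of a 1.54-fold and a 1.63-fold increase. The 260 other genes measured within 10 Mb had a median log2 fold change of 0.23, and FOSL1 lay 0.44 above that median. After correction for GC content and transcript length FOSL1 was at 0.52 and its neighbours at 0.16.

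FOSL2 encodes FRA-2, the close relative of FRA-1. FOSL2 (ENSG00000075426.12; chromosome 2, 28392448 to 28417317, plus strand) had 1282, 1337 and 1411 normalized counts in GFP libraries and 1642, 1703 and 1583 in those labelled T-MGM. The groups did not overlap, and the log2 fold change was 0.29 (adjusted p from DESeq2 of 1.54e-07, SE 0.05). FOS, the founding member and a classical immediate early gene (ENSG00000170345.10; chromosome 14, 75278826 to 75282230, plus strand), had 662, 653 and 716 normalized counts in GFP libraries and 835, 882 and 889 in those labelled T-MGM. All 3 of the latter were higher, with a log2 fold change of 0.36 (adjusted p from DESeq2 of 1.72e-06, SE 0.07).

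FOSB moved the other way from the rest of the FOS type. FOSB (ENSG00000125740.14; chromosome 19, 45467995 to 45475179, plus strand) had 291, 292 and 273 normalized counts in GFP libraries and 225, 250 and 218 in those labelled T-MGM. The libraries did not overlap and FOSB fell by 0.31 on the log2 scale (adjusted p from DESeq2 of 0.0315, SE 0.12). This call was near the threshold: it held without T-MGM replicate 2 (adjusted p of 0.0297), but without each of the other 5 libraries in turn (GFP replicates 1, 2 and 3, T-MGM replicates 1 and 3) the DESeq2 adjusted p was 0.0506 to 0.146. ERCC1, a DNA repair gene on the opposite strand, covers all 7185 bases of the FOSB locus and had a log2 fold change of 0.36 at a mean of 2793 normalized counts. The sources used here name both an unstranded and a stranded library kit, so it is not known whether reads of FOSB and ERCC1 were kept apart. The same holds for JUNB, which lies within HOOK2 on the opposite strand (210 mean normalized counts, log2 fold change of 0.42).

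Among JUN-type genes, JUN rose, JUND rose less, and JUNB showed no difference that passed. JUN (ENSG00000177606.6; chromosome 1, 58776845 to 58784048, minus strand), a classical partner of FOS, had 622, 701 and 753 normalized counts in GFP libraries. Those labelled T-MGM had 1121, 1224 and 1043, all above every GFP library. The log2 fold change was 0.70 (adjusted p from DESeq2 of 2.74e-19, SE 0.08), with 95% limits of a 1.47-fold and a 1.81-fold increase. The 72 other genes measured within 10 Mb of JUN had a median of -0.13, so JUN lay 0.84 above its neighbours on the log2 scale. The JUN and FOSL1 limits overlap, and their order was not tested.

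JUND, the most steadily expressed JUN-type gene in many cells (ENSG00000130522.5; chromosome 19, 18279694 to 18281622, minus strand), had 633, 762 and 705 normalized counts in GFP libraries and 955, 953 and 933 in those labelled T-MGM. The groups did not overlap, with a log2 fold change of 0.43 (adjusted p from DESeq2 of 9.93e-09, SE 0.07). Its transcript is the richest in GC of the members, at 69.9%, and correction for GC content and length left 0.21 (DESeq2 adjusted p of 0.0108). JUNB, often a weaker activator than JUN (ENSG00000171223.6; chromosome 19, 12791486 to 12793315, plus strand), had 1663, 1604 and 1666 normalized counts in GFP libraries and 1654, 1613 and 1602 in those labelled T-MGM. The libraries overlapped, with a log2 fold change of -0.02 (adjusted p from DESeq2 of 0.810, SE 0.05) and 95% limits of 0.927-fold and 1.05-fold. JUNB, at 64.9% GC, was lower by 0.20 after correction for GC content and length and passed there (log2 fold change of -0.20, DESeq2 adjusted p of 5.47e-05).

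ATF3, a stress-induced subunit that often represses as a homodimer, was among the lowest members. ATF3 (ENSG00000162772.17; chromosome 1, 212565334 to 212620777, plus strand) had 140, 116 and 160 normalized counts in GFP libraries and 93.1, 123 and 119 in those labelled T-MGM. The groups overlapped, and the log2 fold change of -0.31 (adjusted p from DESeq2 of 0.201, SE 0.19) had 95% limits of 0.624-fold and 1.04-fold. BATF3, which pairs with JUN-type proteins and is best known from dendritic cells (ENSG00000123685.9; chromosome 1, 212686417 to 212699840, minus strand), had 63.6, 66.0 and 60.5 normalized counts in GFP libraries and 79.4, 79.0 and 99.6 in those labelled T-MGM. Its libraries did not overlap but the log2 fold change of 0.45 did not pass (adjusted p from DESeq2 of 0.125, SE 0.23). Its 95% limits were 0.993-fold and 1.87-fold. ATF3 and BATF3 are neighbours whose surrounding genes had a median of -0.15. BATF, a subunit of lymphocytes (ENSG00000156127.6; chromosome 14, 75522455 to 75546993, plus strand), had 0 counts in all 6 libraries, which allows up to 3 counts in each, or 2.21 to 3.60 normalized counts.

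Levels of different genes were compared in TPM, a share of all transcripts that is scaled for gene length. FOSL1 was by far the most abundant AP-1 transcript, at 117 ± 0.170 TPM in GFP libraries and 166 ± 1.07 TPM in those labelled T-MGM (SD, 3 libraries each). JUNB came next at 19.5 ± 0.374 and 17.4 ± 0.452 TPM, so FOSL1 stood 5.97 times above it in GFP libraries and 9.54 times above it in those labelled T-MGM. JUND had 10.4 and 12.9, FOS 9.34 and 10.2, FOSL2 4.07 and 4.52, and JUN 4.0 and 5.89 mean TPM in GFP and T-MGM libraries. BATF3, FOSB and ATF3 were between 1.25 and 2.52 mean TPM in both groups, and BATF was listed at 0. In GFP libraries the neighbours JUND and FOS, FOSL2 and JUN, BATF3 and FOSB, and FOSB and ATF3 overlapped in this order. In libraries labelled T-MGM only ATF3 and FOSB overlapped, and JUN stood above FOSL2 in all 3.

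Summed over the members, AP-1 transcripts came to 167, 170 and 173 TPM in GFP libraries and 222, 224 and 220 TPM in those labelled T-MGM. Without FOSL1 the sums were 49.8, 53.4 and 56.2 against 55.2, 58.0 and 55.0 TPM, which overlap. On normalized counts per kb of exon the sums without FOSL1 did not overlap, at 1908 to 2018 for the controls against 2255 to 2334 for T-MGM. The FOSL1 share was 70.1%, 68.6% and 67.5% of the sum in GFP libraries and 75.1%, 74.1% and 74.97% in those labelled T-MGM. The JUNB share was 11.5% ± 0.263 in the control group against 7.84% ± 0.169 in the T-MGM group (± SD over 3 libraries). FOS-type over JUN-type transcripts gave a ratio of 4.10, 3.66 and 3.93 in GFP libraries and 5.16, 4.71 and 5.25 in those labelled T-MGM. With normalized counts per kb of exon in place of TPM, the mean FOSL1 share was 67.9% and 74.1%, and the mean ratio was 3.17 and 4.22. These shares describe transcripts, not proteins or dimers, and were not tested.

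**Figure D3:**
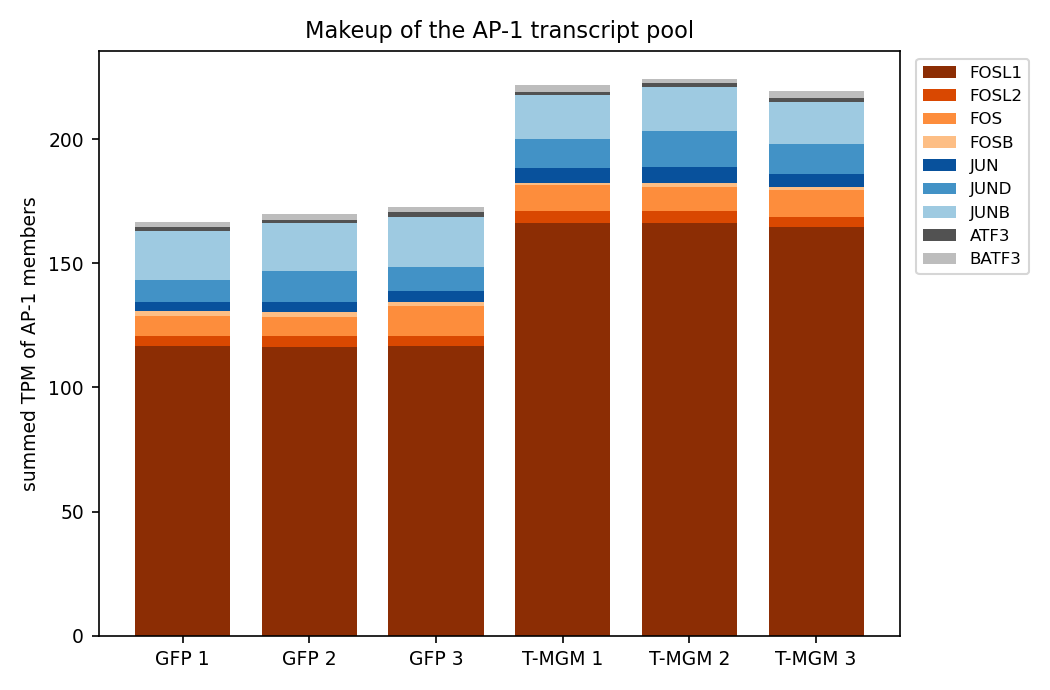
Summed TPM of the AP-1 members (vertical axis) in each library, stacked by member. FOSL1 fills 67.5% to 70.1% of the bars of the GFP libraries and 74.1% to 75.1% of those labelled T-MGM, and the rest of each bar is 49.8 to 58.0 TPM.

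TPM sums to the same total in every library, and protein-coding genes held 61.3% to 61.8% of it in GFP libraries and 57.9% to 59.2% in those labelled T-MGM. On this scale the median log2 fold change of all genes averaging at least 50 normalized counts was -0.13 (pseudocount 1), a shift of -0.12 against the counts. FOSL1 was at 0.50 and JUN at 0.46 in limma on log2(TPM + 1), and both passed (limma adjusted p of 2.13e-05 and 0.00677). Relative to that median of -0.13 they stood at 0.63 and 0.59. FOS, FOSL2 and JUND had 0.14, 0.12 and 0.29 and did not pass there (limma adjusted p of 0.474, 0.241 and 0.124), or 0.27, 0.26 and 0.42 relative to the median. TPM values of FOS overlapped, at 8.15, 7.94 and 11.9 in the control group against 10.2, 9.73 and 10.7 in the T-MGM group. Those of FOSL2, JUND and BATF3 overlapped too, although FOS and these genes did not overlap in normalized counts. JUNB overlapped in normalized counts but not in TPM, at 19.1 to 19.9 for the controls against 16.9 to 17.8 for T-MGM. FOSL1 and JUN stayed higher and FOSB lower in TPM, without overlap. JUNB passed downwards at -0.16 (limma adjusted p of 0.0197), or -0.03 relative to the median.

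Genes around AP-1 were counted from lists of general knowledge. Of 9 further bZIP factors that pair with AP-1 proteins, 8 passed, 4 higher and 4 lower, with a median log2 fold change of -0.03. Over all genes tested, which include genes of low count, 38.4% passed, 19.2% in each direction. Among genes of at least 50 mean normalized counts within 10 Mb of each member, 44.9% to 70.8% passed. Both shares stand beside this and the following lists, and no list was tested as a set. Of the bZIP factors BATF2 was the only one over 2-fold, from 11.5 ± 4.56 to 32.7 ± 13.3 normalized counts (SD, n = 3 each; log2 fold change 1.52, adjusted p from DESeq2 of 0.00699, SE 0.50). CREB5, which binds the cyclic AMP response element with JUN, fell by 0.58 (DESeq2 adjusted p of 1.00e-58) and CEBPB fell by 0.27, whereas ATF4 of the amino acid response rose by 0.25.

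Of 20 kinases and transcription factors that act upstream of AP-1 genes, 11 passed, 6 higher and 5 lower, and none was over 2-fold (median -0.02). This count depended on the scale, and was 6 in limma on log2 TPM with a pseudocount of 1 or 0.1, and 3 without a filter or on protein-coding TPM. MAPK7, which encodes ERK5, rose by 0.33 (DESeq2 adjusted p of 9.63e-13) and MEF2A, a factor acting at the JUN promoter, rose by 0.23. Of 9 genes for JUN and FOS turnover and cofactors, 5 passed, 2 higher and 3 lower (median -0.03). COP1 and ITCH, ubiquitin ligases that act on JUN proteins, fell by 0.25 and 0.21, and MEN1, which encodes menin, a partner of JUND, rose by 0.44 (DESeq2 adjusted p of 1.18e-20).

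Of 20 further immediate early genes 19 could be tested, and 13 passed, 9 higher and 4 lower, with a median of 0.08. EGR2 was the only one over 2-fold, from 347 ± 13.6 to 743 ± 56.7 normalized counts (SD, n = 3 each; log2 fold change 1.09, adjusted p from DESeq2 of 1.64e-32, SE 0.09). By counts EGR1 rose by 0.17 and KLF10 by 0.34, while mean EGR1 was 86.69 TPM in GFP and 87.85 TPM in T-MGM libraries. Of the 4 that fell, EGR3, named after its values were seen, fell by 0.32 (DESeq2 adjusted p of 2.52e-10). The 13 that passed were 9 in limma on log2(TPM + 1), 8 there without a filter, and 10 after GC content and length correction. In the heat shock list 7 of 10 passed, 1 higher and 6 lower. HSPD1, HSPH1 and HSPE1 fell by 0.49, 0.42 and 0.34, BAG3 rose by 0.26, and HSPA1B, DNAJB1 and HSPB1 did not pass. The part of culture or handling in the levels of immediate early genes was not tested.

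Most textbook AP-1 target genes that could be tested were higher in the libraries labelled T-MGM. Of 24, 20 could be tested and 16 passed, 14 higher and 2 lower, with a median log2 fold change of 0.45 beside -0.0027 for all genes tested, of which 19.2% passed in each direction. The 2 that fell, named after their values were seen, were MMP1, a collagenase (log2 fold change -0.82; DESeq2 adjusted p of 0.000569), and LIF, a cytokine (-0.25; DESeq2 adjusted p of 3.84e-36). VIM and CD44, which are in this list, were seen to be higher in earlier results of these data, so the count is not independent evidence of a direction. The 4 over 2-fold were all higher. AREG, a ligand of the EGF receptor, had at most 1 count in each GFP library and 30.2 ± 9.12 normalized counts in those labelled T-MGM (SD, n = 3), at least 8.81-fold higher against a floor of 3 counts in each GFP library. IL11, a cytokine of the IL-6 family, went from 21.4 ± 6.80 to 76.0 ± 10.7 normalized counts (SD, 3 libraries each), a log2 fold change of 1.82 (DESeq2 adjusted p of 1.19e-07). MMP9 was low and its libraries overlapped, at 20.1 and 43.7 mean normalized counts (log2 fold change 1.11, adjusted p from DESeq2 of 0.0222, SE 0.42).

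**Figure D4:**
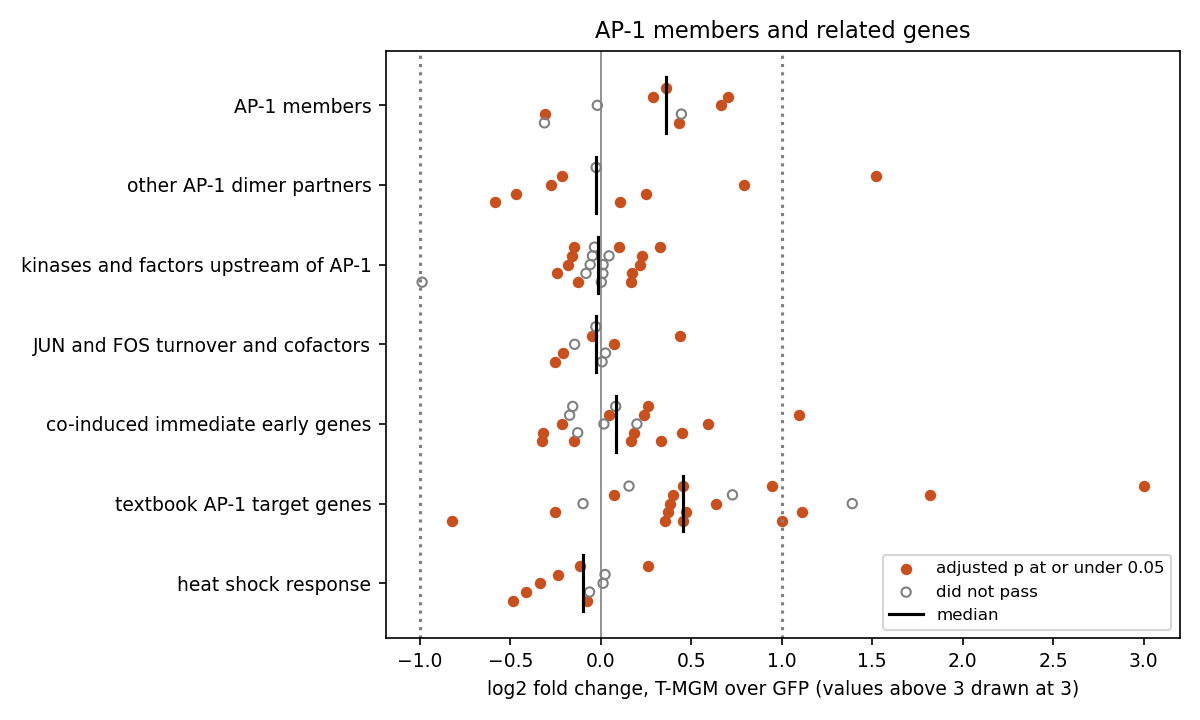
Log2 fold change (T-MGM over GFP, horizontal axis) of each tested gene in 7 lists; filled points passed an adjusted p of 0.05, open points did not, black lines are list medians, dotted lines mark a 2-fold change, and values above 3 (AREG) are drawn at 3. The medians are 0.36 for the AP-1 members and 0.45 for target genes, and lie between -0.10 and 0.08 for the other lists.

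The genes whose pattern over the 6 libraries was most like that of FOSL1, by Euclidean distance of centred log2 normalized counts among 11653 genes, were SEC14L2, CDKN2A and PLK2, at distances of 0.031, 0.039 and 0.039. SEC14L2, a lipid carrier, had 2220, 2147 and 2151 normalized counts in GFP libraries and 3342, 3416 and 3494 in those labelled T-MGM. CDKN2A, a gene of cell cycle inhibition counted here as a whole, had a log2 fold change of 0.64 and PLK2, a stress-responsive kinase, of 0.66. The 6 libraries form only 2 groups, so genes with a like difference between groups come out as near.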

How the data were processed

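RNA sequencing of 6 WM164 libraries was analysed from gene tables, with groups and replicate numbers read from the sample titles. Per the methods and the submitters' processing notes, the authors trimmed reads with cutadapt 1.8.1, aligned them to GRCh38 with STAR 2.7.7a and used featureCounts for reads with a unique alignment. The deposited counts are unnormalized whole numbers. The authors deposited TPM values from RSEM 1.3.0, rounded to 2 decimals. The annotation release is not given in the sources used here.

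Counts were compared with DESeq2 1.42.0 in R 4.3.3, the test named in the study's methods (group as the only term, 2-sided Wald test, independent filtering at 0.05, local dispersion trend, no shrinkage). Adjusted p-values cover all genes tested. A gene passed at an adjusted p at or under 0.05 and was called if also over 2-fold. Fold changes are T-MGM over GFP. The 95% limits use the SE. The floor of 3 counts covers only counting error, as no molecular identifiers were used to count molecules. Where a symbol named several rows (ATF7), the row with the most counts was used.

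The members and lists were chosen with earlier results of these data known. The genes named are the 10 members, the construct genes, the melanocytic markers, in each other list the genes over 2-fold or, with fewer than 3 of these, also the 3 with the largest absolute Wald statistic, and the 3 genes most like the member with the largest statistic (mean normalized count of at least 100). ERCC1 and HOOK2 were added for their overlap, and MMP1, LIF, EGR3, BAG3, HSPA1B, DNAJB1 and HSPB1 after their values were seen. Some genes that this rule selects are not reported here. Gene positions were read from GENCODE release 44 (GRCh38), which held 99.4% of the gene identifiers. Promoters are from RefSeq (GRCh38.p14).

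Alternatives were edgeR 4.0.16, other scalings and filters, the replicate block, each library left out, lowess offsets for GC content and transcript length (span 0.3), and limma 3.58.1 (trended variance) on log2 TPM with a pseudocount of 1 or 0.1 (minimum TPM of 0.5 in 3 libraries, or none). TPM rescaled to protein-coding genes and counts per kb of exon were added after the data were examined. The fits were tested on simulated counts.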

Additional observations from a re-analysis of the deposited data

How the results depend on the processing

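All 9 detected members kept their direction in the 17 alternatives, and FOSL1 (0.50 to 0.67) and JUN (0.46 to 0.77) also passed in all 17. The number of members that passed, 6, was 4 in limma on log2(TPM + 1), with a pseudocount of 0.1 and on protein-coding TPM. It was 3 in limma on log2(TPM + 1) without a filter and 7 after GC content and length correction. It was 5 without independent filtering and with the replicate block, and 5 to 6 with 1 library left out. None was over 2-fold in any alternative. Genes called over 2-fold, 885 in all, were 133 in limma on log2(TPM + 1), 369 with a pseudocount of 0.1, 126 without a filter and 155 for protein-coding TPM (765 to 810 with 1 library left out), and the share called higher moved from 70.5% to 52.6%, 55.3%, 52.4% and 70.3%. List genes that passed, 60, were 38 in TPM without a filter.

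In the 4 TPM fits (pseudocount 1, 0.1, no filter, protein-coding TPM) 2, 2, 2 and 3 members passed upwards in place of 5. The median of genes averaging at least 50 normalized counts lay at -0.13, -0.15, -0.13 and -0.08 in these fits. FOS did not pass in them (0.14, 0.15, 0.14 and 0.21), nor did FOSL2 (0.12, 0.15, 0.12 and 0.20), and JUND did not pass in the first 3 (0.29, 0.31 and 0.29). JUNB passed downwards in the first 3 (-0.16, -0.17 and -0.16) and after GC content and length correction (-0.20). FOSB did not pass in TPM without a filter (-0.37), without independent filtering (-0.31; adjusted p of 0.0532) or when any of 5 libraries was left out (-0.36 to -0.27 over all 6 such fits). The cause of these changes was not tested. The FOSL1 share in T-MGM libraries was 74.1% from counts per kb in place of 74.7%.

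The replicate numbers did not pair the libraries: deviations of same-numbered libraries correlated at -0.0067, -0.058 and 0.029. With the replicate block, FOSB was at -0.31 and did not pass (adjusted p of 0.120), 735 genes were called, and no other member's call changed. At this depth ATF3 and BATF3, near 100 normalized counts, had log2 SEs of 0.19 and 0.23, and their changes of -0.31 and 0.45 did not pass.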
